A study of Rattus norvegicus with 6 samples.

Results

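Macrophage marker genes were examined in rat mammospheres: Cd68, Csf1r, Cd163, Mrc1, Lyve1, C1qa, C1qb, Gpnmb, Tyrobp and Fcer1g. These 10 genes, chosen by name as markers of macrophages, were matched to 11 probe sets that the array annotation assigns to one gene alone, out of 14217 genes so covered. The brightest probe set by mean over all arrays stands for each gene. Lyve1 alone had a further probe set.

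Mammospheres are floating spheres grown from single cells on a surface to which cells do not attach. They came from enriched mammary epithelium of female Sprague Dawley rats. From 55 days of age, rats received recombinant human chorionic gonadotropin (hCG, a pregnancy hormone) by intraperitoneal injection at 100 IU per day, or phosphate buffered saline, for 21 days. Mammary glands 4 and 5 were removed 21 days after dosing ended, and spheres were collected after 7 days in a medium with EGF and basic fibroblast growth factor, 3 arrays per group, numbered 5, 6 and 7 in each. Cells of both groups had therefore spent a week in culture, after a step that enriched for epithelium and that could leave some cells of other types.

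Macrophages are phagocytes that live in the mammary stroma and along its ducts, where they clear dying cells and take part in duct growth and in regression after lactation. Their survival depends on signals through the receptor encoded by Csf1r. Cd163, Mrc1 and Lyve1 encode surface receptors that take up haemoglobin complexes, mannose-bearing glycoproteins and hyaluronan. C1qa and C1qb encode chains of the complement protein C1q. Tyrobp and Fcer1g encode small adaptors that pass signals from surface receptors through ITAM motifs, and Cd68 and Gpnmb encode glycoproteins of endosomes and lysosomes. Several of these genes are also active elsewhere: Lyve1 and Mrc1 in lymphatic and sinusoidal endothelium, Gpnmb in melanocytes and osteoclasts, Fcer1g in mast cells, and Tyrobp and Fcer1g in natural killer cells.

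The markers did not move as one group. Lyve1 rose in hCG spheres, by 3.29-fold, and it was the 1 marker called by limma's moderated test. Mrc1 was 2.77-fold higher on average, at signals too dim to enter that test. Cd68 and Gpnmb were lower on every hCG array than on any control array, by 2.51-fold and 1.30-fold, and neither was called. Csf1r, Cd163 and C1qb were dim on all or nearly all arrays, and their groups overlapped.

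Signals were compared on the log2 scale of the authors' deposited values. The dimmest 40% of probe sets, with a mean below a log2 level of 2.67, were left out of the test, and a gene was called at an adjusted p under 0.05. By this filter 5 markers were tested (Lyve1, Tyrobp, Fcer1g, Cd68 and Gpnmb) and 5 were not (Csf1r, Cd163, Mrc1, C1qa and C1qb). Of the 10424 tested genes, 1.01% were called higher and 0.815% lower. Among the 5 tested markers, 1 was called higher and 0 lower. All 5 had an unadjusted p under 0.05, 3 higher and 2 lower; of all tested genes 24.1% did, 14.4% higher and 9.64% lower. Every call named here rests on nearly all of the arrays, since limma called 0 genes when Control 5, Control 6, hCG 5 or hCG 7 was left out. Lyve1 passed the filter through its hCG arrays, since its control values lay below that level. In bulk spheres, fewer cells of a type and less RNA per cell cannot be told apart.

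The arrays were alike in overall signal, with medians from 3.44 to 3.48. Poly-A spike transcripts of bacterial origin, which enter the samples ahead of the labelling step, had mean log2 levels of 5.56 ± 0.14 (SD, n = 3) in the control group and 4.51 ± 0.34 in the hCG group, without overlap (two-sided exact permutation, p = 0.1, which is the smallest that 3 against 3 allows). The 3' minus 5' signal of Actb ranged from 1.46 to 2.18 on control arrays and from 1.55 to 1.75 on hCG arrays. The part of the spike difference in the marker values was not tested. The 8 epithelial markers examined (Epcam, Cdh1 and 6 keratins) were all above the filter, and 0 were called (limma; 0 at an unadjusted p under 0.05); the 4 of smallest p were Krt14 (a log2 difference of 0.92), Krt5 (0.69), Krt17 (0.72) and Krt19 (-0.60).

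**Figure D1:**
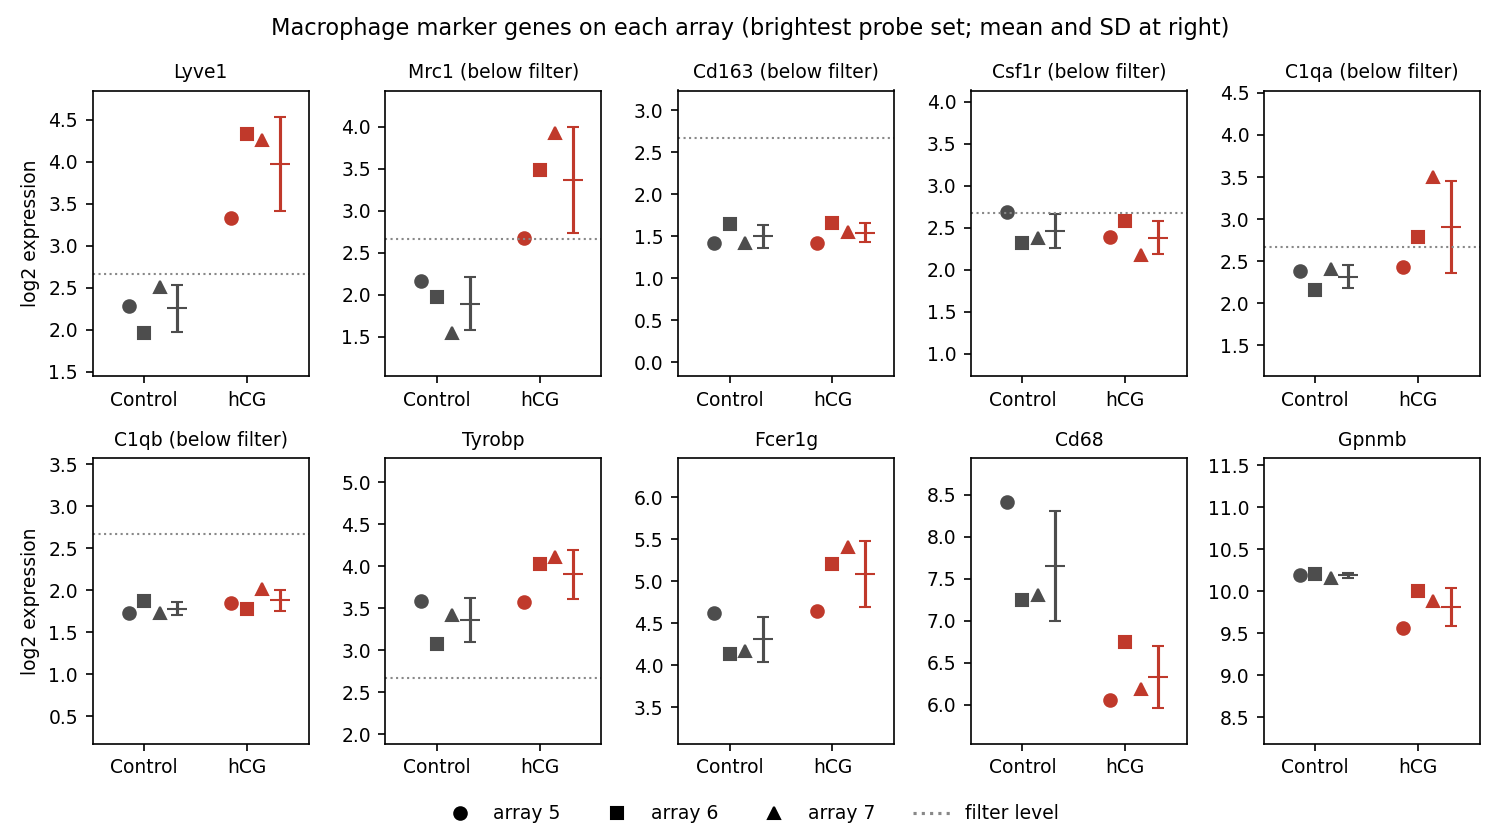
Log2 expression of the 10 macrophage marker genes on each array, by group, with array numbers as symbols, the group mean and SD at the right of each cluster, and the filter level of 2.67 as a dotted line. Every panel spans the same range of log2 units. Lyve1 and Mrc1 sit higher on all 3 hCG arrays, Cd68 and Gpnmb lower, and Cd163, Csf1r and C1qb overlap.

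Lyve1 and Mrc1 are the receptors for hyaluronan and for mannose-bearing ligands, and both are used to mark macrophages that reside in tissue. Lyve1 had log2 levels of 2.29, 1.97 and 2.51 on Control 5, 6 and 7. On hCG 5, 6 and 7 it had levels of 3.33, 4.33 and 4.26. The hCG group lay wholly above the control group, with hCG 5 the lowest of the 3. The group means were 2.26 ± 0.28 (SD, n = 3) and 3.98 ± 0.56, a log2 difference of 1.72 (SE 0.28, 95% interval 1.05 to 2.39; limma adjusted p = 0.0424). Of the tested genes, 17 (Lyve1 included) were higher by at least as much. The further Lyve1 probe set was dimmer, below the filter. It read 1.68, 1.56 and 2.01 on the control arrays against 2.52, 2.83 and 2.74 on the hCG arrays, a log2 difference of 0.95, again without overlap (limma adjusted p = 0.0403 over all probe sets, with no filter). Both probe sets were therefore higher on every hCG array, by different amounts at dim signal. The Lyve1 call held in 1 of the 6 fits that each left out 1 array, that without Control 7. The difference was 1.74 without Control 5 (adjusted p = 0.099), 1.57 without Control 6 (adjusted p = 0.136), 2.04 without hCG 5 (adjusted p = 0.059), 1.54 without hCG 6 (adjusted p = 0.0561) and 1.58 without hCG 7 (adjusted p = 0.196).

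Mrc1 had log2 levels of 2.16, 1.98 and 1.54 on Control 5, 6 and 7, and of 2.68, 3.49 and 3.92 on hCG 5, 6 and 7. The groups did not overlap, and hCG 5 was again the lowest hCG array, just above the filter level. Its mean over all arrays, 2.63, fell just under the filter level of 2.67, as did that of C1qa, 2.61, while the tested marker nearest to that level was Lyve1, with a mean of 3.12. The log2 difference of Mrc1 was 1.47 (means 1.89 ± 0.32 and 3.36 ± 0.63, SD, n = 3), and with no filter limma gave a 95% interval from 0.75 to 2.19 and an adjusted p = 0.0595. All control values of both genes lay below the filter level, so their folds start from dim signal and depend on it.

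Cd163, the haemoglobin scavenger receptor that is the usual marker of tissue macrophages in the rat, was the dimmest of the 10 markers in its own signal rank, with 10.9% of probe sets dimmer. Its levels were 1.43, 1.65 and 1.42 on the control arrays against 1.42, 1.65 and 1.56 on the hCG arrays. The groups overlapped, with a log2 difference of 0.05 (95% interval -0.19 to 0.28 with no filter, limma adjusted p = 0.848). Csf1r, the receptor for macrophage growth factor, had levels of 2.69, 2.31 and 2.37 on the control arrays against 2.39, 2.58 and 2.18 on the hCG arrays. Only Control 5 reached the filter level, and the groups overlapped (log2 difference -0.08, 95% interval -0.40 to 0.25 with no filter, limma adjusted p = 0.805). Both intervals end well below the difference of Lyve1, at signals where little can be said of the transcript's level.

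Lyve1 and Mrc1, higher on every hCG array, and Cd68 and Gpnmb, lower on every one, are shown by the 250 bases before their RefSeq start sites (build GRCr8). Entries were found for 8 of the 10 markers. Capitals mark AGGAAG on either strand (CTTCCT on the printed strand). Ets family factors can bind this core, among them PU.1, the factor that drives macrophage genes. The PU.1 gene, Spi1, had no probe set assigned to it alone, so its level was not measured here.
Lyve1, chr1:174410978-174411227, minus strand: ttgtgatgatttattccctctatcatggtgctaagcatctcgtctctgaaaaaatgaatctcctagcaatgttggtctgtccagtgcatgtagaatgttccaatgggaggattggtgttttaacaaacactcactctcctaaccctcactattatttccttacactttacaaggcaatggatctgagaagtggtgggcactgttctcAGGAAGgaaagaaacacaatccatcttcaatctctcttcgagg
Mrc1, chr17:82157475-82157724, plus strand: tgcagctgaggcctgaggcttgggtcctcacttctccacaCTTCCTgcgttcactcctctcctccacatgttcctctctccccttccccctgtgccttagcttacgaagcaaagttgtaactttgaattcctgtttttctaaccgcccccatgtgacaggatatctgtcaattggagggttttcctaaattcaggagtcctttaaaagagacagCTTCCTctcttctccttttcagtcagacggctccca
Cd68, chr10:54882442-54882691, minus strand: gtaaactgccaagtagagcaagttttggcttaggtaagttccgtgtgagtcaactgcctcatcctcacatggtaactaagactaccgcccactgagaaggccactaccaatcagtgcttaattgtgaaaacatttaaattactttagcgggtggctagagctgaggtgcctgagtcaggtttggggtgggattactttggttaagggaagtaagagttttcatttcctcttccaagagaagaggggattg
Gpnmb, chr4:79340878-79341127, plus strand: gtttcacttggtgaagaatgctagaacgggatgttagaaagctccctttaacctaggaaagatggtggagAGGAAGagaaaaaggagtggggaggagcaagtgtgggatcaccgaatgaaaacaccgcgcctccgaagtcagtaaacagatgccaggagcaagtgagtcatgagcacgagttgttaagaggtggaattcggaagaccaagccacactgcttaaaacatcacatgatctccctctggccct
The core was present in 6 of the 8 marker windows, and in 29.5% of 33469 windows of the same length. It occurred 2 times for Mrc1, 1 time for Lyve1 and Gpnmb, and 0 times for Cd68, so the windows with the core included genes that were higher and a gene that was lower. The E-box CACGTG is the same on both strands and is bound by the lysosomal gene regulators TFEB and MITF. It was in 0 of the 8 windows and in 5.59% of all windows. Only these exact letters were searched, so other sequences that TFEB or MITF can bind were not counted. These are matches of letters and show no binding.

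**Figure D2:**
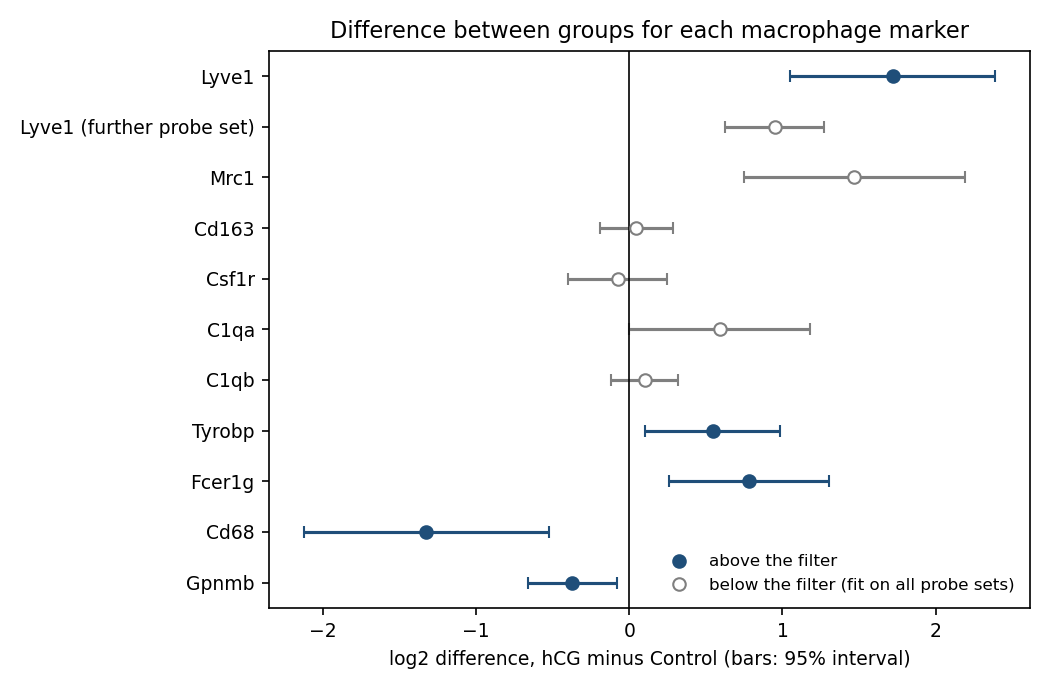
Log2 difference between hCG and Control means for each marker probe set, with 95% intervals from limma (n = 3 per group). Filled points were tested after the filter, and open points, below it, take their interval from the fit to all probe sets. Lyve1 (1.72) and Mrc1 (1.47) lie farthest to the right and Cd68 (-1.33) farthest to the left.

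C1qa and C1qb encode 2 of the 3 chains of C1q, which binds immune complexes and dying cells and starts the classical complement pathway. With C1qc, the third chain, they neighbour each other on chromosome 5 in the RefSeq assembly. C1qa had levels of 2.38, 2.16 and 2.41 on the control arrays against 2.42, 2.79 and 3.50 on the hCG arrays. The groups parted by a small gap between Control 7 and hCG 5, and the mean difference of 0.59 came mostly from hCG 7: it was 0.29 without that array. With no filter, the 95% interval ran from 0.00037 to 1.18 (limma adjusted p = 0.241). C1qb stayed dim, at 1.74, 1.88 and 1.74 on the control arrays against 1.85, 1.78 and 2.02 on the hCG arrays, with overlap (log2 difference 0.10, limma adjusted p = 0.604 with no filter). C1qc was also below the filter and overlapped, with means of 2.14 ± 0.29 and 2.39 ± 0.10 (SD, n = 3). The 3 chains, which assemble into one protein, thus had differences from 0.10 to 0.59, each with a mean over the arrays below the filter level.

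Tyrobp, also called DAP12, is the adaptor of receptors such as Trem2. It had levels of 3.58, 3.07 and 3.42 on the control arrays against 3.57, 4.03 and 4.11 on the hCG arrays. The groups overlapped at one point, where hCG 5 lay just below Control 5. Its log2 difference was 0.55 (SE 0.19, 95% interval 0.10 to 0.99; limma adjusted p = 0.146). Fcer1g, the gamma chain shared by Fc receptors, had levels of 4.62, 4.13 and 4.17 on the control arrays against 4.65, 5.21 and 5.40 on the hCG arrays. The groups did not overlap, but hCG 5 lay only just above Control 5. Its log2 difference was 0.78 (SE 0.22, 95% interval 0.26 to 1.30; limma adjusted p = 0.107). Neither adaptor was called, and with 1 array left out in turn Tyrobp lay between 0.40 and 0.71 and Fcer1g between 0.62 and 1.00. The 2 adaptors had the same order of arrays within the hCG group, lowest on hCG 5 and highest on hCG 7.

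Cd68 is a heavily glycosylated protein of late endosomes, the one that macrophage antibodies such as ED1 detect in the rat. It had levels of 8.41, 7.25 and 7.31 on Control 5, 6 and 7, and of 6.06, 6.75 and 6.19 on hCG 5, 6 and 7. All hCG arrays lay below all control arrays, and Control 5 stood above the other controls by more than the gap between the groups. The log2 difference was -1.33 (means 7.66 ± 0.65 and 6.33 ± 0.37, SD, n = 3; SE 0.34, 95% interval -2.13 to -0.53; limma adjusted p = 0.0879). It was -0.95 without Control 5 (adjusted p = 0.123). Control 5 also had the lowest epithelial marker level, with a mean of -0.92 relative to the control mean, against 0.19 on Control 6, 0.74 on Control 7 and 0.02 to 0.33 on hCG arrays. The part of epithelial content in the Cd68 values was not tested. Of the tested genes, 78 (Cd68 included) had a difference at least as far below 0.

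Gpnmb, a membrane glycoprotein of lysosomes and melanosomes, was the brightest marker by signal rank, with 98.8% of probe sets dimmer. It had levels of 10.20, 10.21 and 10.16 on the control arrays against 9.56, 10.00 and 9.88 on the hCG arrays. The control arrays were nearly equal and all hCG arrays lay lower, with hCG 5 the lowest. The log2 difference was -0.37 (means 10.19 ± 0.03 and 9.81 ± 0.23; SE 0.12, 95% interval -0.66 to -0.08; limma adjusted p = 0.138), and it was -0.25 without hCG 5. Of the 10 markers, 4 had hCG values wholly above the controls (Lyve1, Mrc1, C1qa and Fcer1g), 2 wholly below (Cd68 and Gpnmb) and 4 overlapped. Over all 14217 genes, 15.6% lay wholly above and 10.7% wholly below. The hCG 5 array had the lowest of the hCG values in 8 of the 10 markers, both in those that were higher and in those that were lower; it was lowest in 34.9% of all genes.

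The bright lysosomal markers were set beside other lysosomal genes. Of 24 genes listed, 21 were on the array and tested, 0 were called higher and 2 were called lower. These were Psap, the precursor of proteins that help break down sphingolipids (-0.56, SE 0.09, limma adjusted p = 0.0382), and Ctsd, the protease cathepsin D (-0.71, SE 0.12, adjusted p = 0.0462). Of the rest, Gla, a galactosidase (-0.41, adjusted p = 0.0591), Grn, the progranulin gene (-0.42, adjusted p = 0.0859), Tpp1, a peptidase (-0.28, adjusted p = 0.109), and Ctsa (-0.30, adjusted p = 0.125) had the smallest p. In 15 of the 21 the hCG values lay wholly below the controls and in 0 above, where 12.3% of tested genes lay below and 19.3% above. Their median difference was -0.27, against 0.03 over all tested genes, and 1 of the 21 was above 0. The difference of Gpnmb, -0.37, lay within the range of these genes, and that of Cd68 was further below 0 than any of them.

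Genes shared by white blood cells were examined next. Of 12 pan-leukocyte genes 10 were tested and 2, Cd37 and Cd52, were below the filter. Limma called 0 in either direction, and 4 had an unadjusted p under 0.05. Over all tested genes 24.1% had such a p, the share to set beside this count and those of the lists that follow. Only 3 were above 0 (Cd48 at 0.15, Hcls1 at 0.10 and Itgb2 at 0.05), with a median over the tested genes of -0.34. Ptprc, which encodes CD45, had levels of 4.13, 3.81 and 3.55 on the control arrays against 2.07, 3.19 and 2.97 on the hCG arrays, lower on every hCG array (log2 difference -1.09, SE 0.30, limma adjusted p = 0.102). Coro1a, an actin regulator of leukocytes, also lay wholly lower (-1.20, SE 0.29, adjusted p = 0.0829), as did Arhgdib (-0.69, adjusted p = 0.139), while Cd53 overlapped (-0.90, adjusted p = 0.177). The mean level of the list, relative to the control mean, ranged from -0.06 to 0.08 on control arrays and from -0.64 to -0.22 on hCG arrays. Lyve1 and Mrc1 were thus higher in the hCG group, where the mean pan-leukocyte level and Cd68 were lower. Neither Cd68 nor any pan-leukocyte gene was called. The markers Fcer1g (0.78) and Tyrobp (0.55) were above 0, also without a call. The part of leukocyte content in the Lyve1, Mrc1 and Cd68 values was not tested.

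Of 20 other macrophage surface receptors, 15 were on the array and 8 were tested, of which 0 were called higher and 1 lower. Of the 8, 5 were above 0, with a median of 0.27. An unadjusted p under 0.05 (limma) was found for 4 of them, against 24.1% of all tested genes. Cd86, a costimulatory ligand of antigen-presenting cells, fell with a log2 difference of -0.81 (SE 0.13, limma adjusted p = 0.0382). Fcgr2b, the inhibitory IgG receptor, had levels of 3.81, 3.86 and 3.69 on the control arrays against 4.23, 4.78 and 5.01 on the hCG arrays. It was higher on every hCG array and not called (0.89, SE 0.19, adjusted p = 0.0645). Folr2, a folate receptor found with Lyve1 and Mrc1 on resident macrophages, was higher by 0.43 without overlap (SE 0.13, adjusted p = 0.118), at 2.74 ± 0.06 and 3.16 ± 0.24 (SD, n = 3). Cd14, the lipopolysaccharide coreceptor, lay wholly lower (-0.66, adjusted p = 0.125), and Aif1 had a difference of -0.15 (adjusted p = 0.261). The integrin gene Itgam and the chemokine receptor gene Cx3cr1 were below the filter.

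Partners of Tyrobp and Fcer1g were examined beside them. Of 14 listed ITAM partners and signalling genes 10 were on the array and 4 were tested, with 0 called (limma; 0 at an unadjusted p under 0.05 among the 4). Trem2, a receptor that signals through Tyrobp, had a log2 difference of 0.01 (SE 0.09), the kinase genes Syk and Lyn of -0.02 (SE 0.09) and 0.02 (SE 0.10), and the phosphatase gene Inpp5d of 0.05 (SE 0.11). All 4 were dim, with group means from 2.90 (Syk, hCG) to 3.30 (Inpp5d, hCG) against the filter level of 2.67. At such signals little can be said of a change in the transcript. The test of the difference between these genes and the adaptors was not made. Of the mast cell and granulocyte list, 8 of 10 were on the array and 3 tested, with 0 called. Of the 3, 1 had an unadjusted p under 0.05, against 24.1% of all tested genes. Fcer1a and Ms4a2, which encode the other chains of the mast cell IgE receptor, were below the filter. Of the tested genes of this list, S100a9 had a log2 difference of -1.67 (limma adjusted p = 0.129), S100a8 of -0.50 and Cpa3 of -0.13. Of 10 natural killer and T cell markers 9 were below the filter, including Cd3e, Nkg7, Ncr1 and Prf1; the 1 tested, Lck, was not called (log2 difference 0.32, limma adjusted p = 0.136).

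Of 14 complement genes 9 were on the array and 7 tested, with 0 called by limma. Of the 7, 3 had an unadjusted p under 0.05, against 24.1% of all tested genes. The central component C3 had a log2 difference of -2.01 (SE 0.39, limma adjusted p = 0.0559), Cfd (adipsin, a protease of adipocytes and macrophages) of 1.01 (SE 0.25, adjusted p = 0.0839), the receptor gene C5ar1 of 0.51 (adjusted p = 0.196) and C1s, a protease that acts with C1q, of 0.20 (adjusted p = 0.302). Of 8 growth factors and attractants of myeloid cells 6 were tested, with 0 called higher and 1 lower, Csf3 (-1.69, SE 0.18, limma adjusted p = 0.0289), which acts on granulocytes. Csf1, the ligand of Csf1r, had levels of 6.07, 6.26 and 6.24 on the control arrays against 6.21, 6.19 and 6.19 on the hCG arrays, a log2 difference of 0.01 (SE 0.08); it is named after its values were seen. The attractant Ccl2 had a difference of -0.54 (adjusted p = 0.215), Ccl7 of -0.60 (adjusted p = 0.312) and Cx3cl1 of -0.31 (adjusted p = 0.33).

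Of 11 myeloid transcription factors 9 were on the array and 7 tested, with 0 called by limma. Of the 7, 1 had an unadjusted p under 0.05, where 24.1% of all tested genes had. The smallest p were those of Nr1h3 (0.96, adjusted p = 0.147), Maf (-0.28, adjusted p = 0.273), Runx1 (-0.42, adjusted p = 0.381) and Cebpa (0.10, adjusted p = 0.462). Of 15 genes of macrophage activation states 11 were tested, with 1 called higher and 0 lower: Tnf, an inflammatory cytokine, rose by 0.92 (SE 0.15, limma adjusted p = 0.0439). Of the 11, 5 had an unadjusted p under 0.05, against 24.1% of all tested genes. Ptgs2 (-1.13, adjusted p = 0.132), Spp1 (-0.32, adjusted p = 0.161), Il6 (-1.38, adjusted p = 0.176) and F13a1, a transglutaminase of resident macrophages (-1.74, adjusted p = 0.179), were not called. Of 9 haem and iron genes 7 were tested, with 0 called and 3 at an unadjusted p under 0.05; Slc11a2 (-0.38, adjusted p = 0.0657), Hmox1, which breaks down haem (-0.75, adjusted p = 0.136), Tfrc (0.36, adjusted p = 0.151) and Hp (0.17, adjusted p = 0.436) had the smallest p. Dendritic cell markers (3 tested of 5 on the array) had 0 calls and 1 at an unadjusted p under 0.05, Cd74, the invariant chain of MHC class II, at -1.95 (adjusted p = 0.058); Batf3 was at 0.42 and Itgax at 0.17. Both B cell markers on the array were below the filter.

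Lyve1 and Mrc1 were also set beside endothelial genes, since endothelium can express both. Of 7 lymphatic endothelial markers 4 were tested, with 0 called by limma. Of the 4, 2 had an unadjusted p under 0.05, against 24.1% of all tested genes. Prox1, the factor that defines lymphatic endothelium, was below the filter and lay wholly lower, at 2.63 ± 0.10 and 2.32 ± 0.11 (SD, n = 3), and Flt4 and Mmrn1 were below the filter too. Reln had a log2 difference of -1.33 (adjusted p = 0.116) and Pdpn of -0.41 (adjusted p = 0.333), while the chemokine gene Ccl21 was higher by 0.51 (adjusted p = 0.136) and Nr2f2 by 0.04. The mean level of the lymphatic list ranged from -0.13 to 0.11 on control arrays and from -0.34 to -0.11 on hCG arrays. Of 13 blood endothelial markers 11 were on the array and 9 tested, and 4 were called higher: Cd93 (2.03), Emcn (1.89), Esam (0.98) and Erg (0.62), at adjusted p from 0.0368 to 0.0493. All 9 tested were above 0, with a median of 1.23, and the list's mean level ranged from -0.32 to 0.44 on control arrays and from 1.01 to 1.08 on hCG arrays. Below the filter, Tie1 was higher by 0.67 without overlap and Vwf overlapped (-0.10). The tested blood endothelial genes were thus higher in the hCG group, as Lyve1 and Mrc1 were. Any gene higher in hCG shares those arrays. Of the 11 blood endothelial genes on the array, 9 lay wholly above the controls. Over all genes 15.6% did so, and over tested genes 19.3%. All 9 tested blood endothelial genes had an unadjusted p under 0.05 (limma), against 24.1% of all tested genes. Within the hCG group, on arrays 5, 6 and 7, the blood endothelial level was 1.07, 1.08 and 1.01. The pan-leukocyte level was -0.64, -0.22 and -0.24, the lymphatic level -0.34, -0.11 and -0.18 and the epithelial level 0.02, 0.33 and 0.16. The blood endothelial level varied little among these arrays. The other levels were lowest on hCG 5, as Lyve1, Mrc1 and 34.9% of all genes were. On Control 5, 6 and 7 the blood endothelial level was -0.32, -0.12 and 0.44. Among the controls Lyve1 was also highest on Control 7, and Mrc1 was lowest there. The part of endothelial cells in the Lyve1 and Mrc1 signal was not tested.

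Other cell types that share single markers were checked in the same way. Of 8 melanocyte and osteoclast markers, relevant to Gpnmb, 7 were on the array and 3 tested; 1 was called higher, Acp5, a phosphatase of osteoclasts and macrophages (0.71, SE 0.12, limma adjusted p = 0.0439). Pmel had a log2 difference of -0.05 and Ctsk of 0.26, and the melanocyte genes Tyrp1, Dct and Mlana were below the filter. All 8 fibroblast markers were tested and 1 was called higher, Lum (1.13, SE 0.17, limma adjusted p = 0.0373). Next by p were Col3a1 (0.37, adjusted p = 0.0617), Fap (0.52, adjusted p = 0.108) and Pdgfra (0.25, adjusted p = 0.12). Control means of the fibroblast markers ran from 6.90 (Pdgfrb) to 12.48 (Dcn), and those of the epithelial markers from 5.24 (Krt5) to 7.32 (Epcam). Levels of different probe sets do not measure cell numbers, and the part of fibroblasts in the marker values was not tested.

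**Figure D3:**
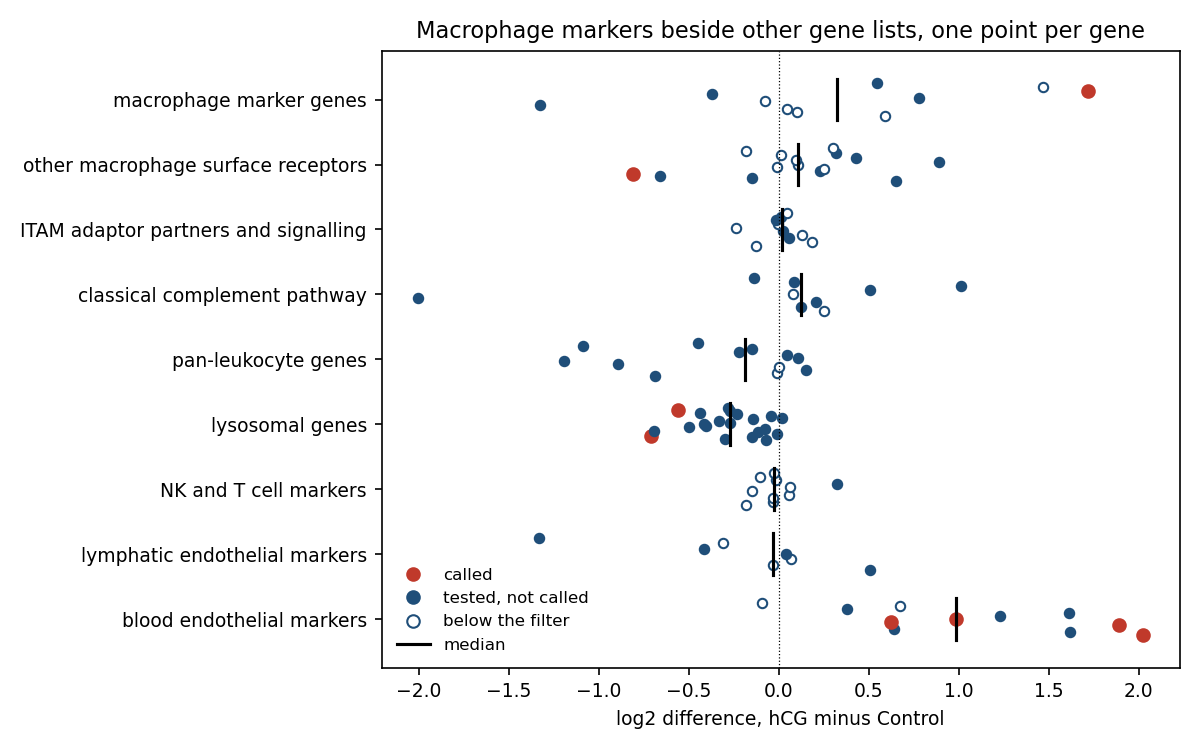
Log2 difference between hCG and Control for each gene on the array of 9 lists, one point per gene, with the list's median as a bar. Red points were called, filled blue points were tested and not called, and open points lay below the filter. The macrophage markers spread from -1.33 to 1.72, lysosomal genes lie mostly left of 0 and blood endothelial genes mostly right of it.

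For the 2 tested markers that differed most, the genes of nearest pattern were those with the smallest mean absolute difference in log2 level over the 6 arrays, after each gene was centred on its own mean. For Lyve1 these were Sfrp4, a secreted Wnt inhibitor (0.22), the potassium channel subunit gene Kcne3 (0.26) and Adgrl4, a receptor of endothelial cells (0.31). Sfrp4, the nearest, had levels of 3.56, 3.46 and 3.64 on the control arrays against 4.85, 5.05 and 5.68 on the hCG arrays. It was highest on hCG 7, where Lyve1 was highest on hCG 6. Kcne3 had levels of 4.02, 4.31 and 5.22 on the control arrays against 6.01, 6.61 and 6.44 on the hCG arrays. Within the hCG group it followed Lyve1, lowest on hCG 5 and highest on hCG 6. Among the controls Kcne3 was lowest on Control 5 and Lyve1 on Control 6. For Cd68 the nearest were the potassium channel gene Kcnk10 (0.15), the ion channel gene Asic4 (0.17) and Marchf11 (0.19). Each of them was highest on Control 5 and lowest on hCG 5, as Cd68 was. Their likeness was sought among 10424 genes over few arrays and is a description only.

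**Figure D4:**
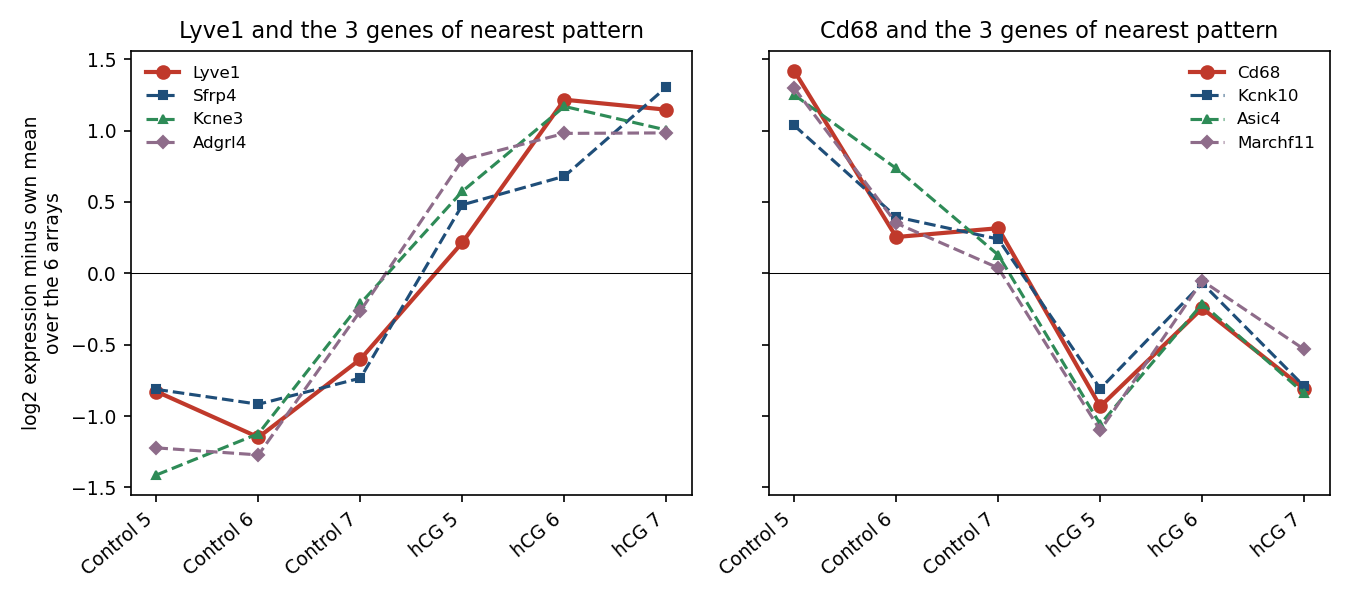
Log2 expression on each array minus the gene's own mean over the 6 arrays, for Lyve1 (left) and Cd68 (right) with the 3 genes nearest to each in pattern. Lines join arrays only to make a pattern visible. Lyve1 and its neighbours are higher on all hCG arrays, and Cd68 and its neighbours peak on Control 5.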

How the data were processed

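RNA from mammospheres was labelled with a two-cycle kit and hybridised to Affymetrix 3' arrays, per the labels' protocols. The values are log2 expression as deposited by the authors, 31099 probe sets on 6 arrays. RMA, MAS5 and limma are named in the submitters' processing notes without roles; the log base is not given in the sources used here and was taken from the range of 0.74 to 13.1. Normalization between arrays hides a change shared by most genes. Whether arrays stand for separate animals is not stated; p-values reflect the spread among these 6 samples, part of which may be technical.

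The 57 control probe sets and the dimmest 40% of the rest were left out, giving 18625 probe sets and 10424 genes, each represented by its brightest probe set. Names came from the platform annotation (20826 probe sets with 1 gene, 436 with several, which were not used), updated through RefSeq gene numbers for 20758. Promoter sequences are from RefSeq, build GRCr8. limma 3.58.1 in R 4.3.3 (lmFit, eBayes, two-sided) was fitted on all tested probe sets, with Benjamini-Hochberg adjustment over genes; markers below the filter were fitted with all probe sets. The number of arrays, with 4 residual degrees of freedom, limits the precision. The script was tested on simulated data.

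The markers, the 18 further gene lists, the tests and the rule for named genes were chosen with earlier results of these data known. The rule names all 10 markers, each called gene of a list and up to 4 others of smallest p. Levels of a list are the mean log2 values of its genes on the array relative to the control mean. Deviations of same-numbered arrays from their group means had correlations of -0.09, 0.13 and 0.0015, so array numbers were not taken as pairs. Alternatives were other filters, normalizations, probe set rules, eBayes settings, array weights, a block for the array number and each array left out.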

Additional observations from a re-analysis of the deposited data

How the results depend on the processing

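The 10 markers kept 1 call higher (Lyve1) and 0 lower with no filter, median centring, quantile normalization, cyclic loess, the mean of probe sets, and eBayes with trend or robust. The call of Lyve1 was lost when the dimmest 60% of probe sets were left out, since it was then not tested (0 markers called higher). With array weights 3 markers were called higher and 2 lower. That setting also called 2663 of the 10424 tested genes, against 190 in the main fit. With 1 array left out in turn, 0 to 1 markers were called higher. No tested marker changed its direction under any alternative; Csf1r and Cd163, below the filter, lay on either side of 0 when 1 array was left out.

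Over all genes, 190 were called, and 298 of 18625 probe sets. Array weights called 2663 genes and 4253 probe sets, and a variance trend called 306 genes and 500 probe sets. With 1 array left out, 0 to 586 genes and 0 to 1069 probe sets were called; limma called 0 genes without Control 5, Control 6, hCG 5 or hCG 7, with 1958, 1936, 1645 and 1451 at an unadjusted p under 0.05. Fits on as many arrays, without Control 7 or without hCG 6, called 586 and 337 genes. The cause was not tested. With the array number as a replicate block, 118 genes and 1 probe set were called, and 0 markers (Lyve1 adjusted p = 0.0573). Numbers did not pair the arrays by the correlations given, so the block is shown as a setting only. Dim signal limits what can be said of Csf1r, Cd163, Mrc1, C1qa and C1qb.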
